A study of Rattus norvegicus with 40 samples.

Results

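Right ventricles of carvedilol-treated SuHx rats were compared with right ventricles of rats exposed to hypoxia alone. The arrays were taken by their titles, 8 arrays of 6 carvedilol-treated SuHx animals against 12 arrays of 6 hypoxia animals, which make 20 of the 40 arrays and 12 of the 24 animals of the series. Carvedilol-treated SuHx rats received SU5416 (20 mg/kg, once), breathed 10% oxygen for 4 weeks, and were then gavaged daily with carvedilol (15 mg/kg) for 4 weeks in room air. Rats of the hypoxia group had 4 weeks at 10% oxygen and neither compound. Untreated SuHx rats (the same SU5416 dose and hypoxia, then 2 weeks at sea level) and untreated normal rats, 6 animals each, shared the fit. They therefore enter the spread behind every SE and p-value of the fit, and the choice of tested genes. Otherwise they serve to place the values and in the tests of likeness. All were male Sprague-Dawley rats. SU5416 blocks receptors for vascular endothelial growth factor, and carvedilol blocks beta and alpha1 adrenergic receptors. In this field hypoxia alone stands for a right ventricle that adapts to load, and SuHx for one that fails. The comparison therefore asks whether the failing ventricle, once treated, resembles the adapting one. The 2 groups differed in SU5416, in carvedilol and in time since hypoxia together, no vehicle group was analysed here, and these 3 differences cannot be told apart.

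A pressure-loaded right ventricle enlarges its muscle cells, releases natriuretic peptides and takes up again contractile proteins of the fetal heart. Its fuel use is set by coactivators of the PGC-1 family, which drive fatty acid oxidation, and by hexokinase and the enzymes after it, which carry glucose into glycolysis. Loss of capillaries, fibrosis and a fall of beta1 adrenergic receptors are known features of its failure.

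Each array compared the RNA of 1 animal, in red, with a reference RNA in green, the same on all arrays and drawn from 14 cell lines of the rat, so that every value is a log2 ratio of ventricle over reference. Levels below are such ratios. Differences are carvedilol-treated minus hypoxia on the log2 scale with the SE of the limma fit, n = 6 animals per group unless stated, and p-values are adjusted over 9775 genes. Array files held between 19264 and 35758 spots with a value. The mean per animal was 28432 (SD 1852) in carvedilol-treated and 26035 (SD 2092) in hypoxia animals, with p = 0.0628 in a two-sided exact permutation test (adjusted p = 0.113). Normal animals had more values, from 28192 to 35758 per animal, against 22759 to 28400 in hypoxia animals and 26167 to 31670 in carvedilol-treated animals. Of the 40 arrays, 2 stood apart: the first arrays of hypoxia animals 3 and 4, whose median correlation with the other arrays of their group was 0.512 and 0.482. Counts are therefore also given without these 2 arrays. All 6 carvedilol-treated animals and hypoxia animals 5 and 6 have label numbers over 100. The other 4 hypoxia animals and all SuHx and normal animals do not. The labels do not say whether this marks a cohort. In comparisons of carvedilol-treated with SuHx or normal animals, label number and group therefore cannot be told apart. The tissue label was checked against 16 cardiomyocyte markers, all of them tested: their mean log2 ratio per animal ran from 5.34 to 6.55 in carvedilol-treated animals, 3.87 to 4.68 in hypoxia animals and 4.17 to 5.12 in normal animals, so that the muscle label held in every animal.

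Many genes differed between the treated ventricle and the hypoxic one. Of 9775 tested genes, 1649 were called at an adjusted p under 0.05 (16.9%), 1014 of them higher in carvedilol-treated animals (10.4%) and 635 lower (6.50%), and the median difference of all genes was 0.06. The groups did not overlap in 711 genes (7.27%), with the carvedilol-treated animals above in 466 (4.77%) and below in 245 (2.51%). In the same fit carvedilol-treated animals differed from normal ones in 1077 genes (11.0%, 222 higher and 855 lower) and hypoxia animals differed from normal ones in 1212 (12.4%, 87 higher and 1125 lower). With the number of values per animal as a covariate, 237 genes were called for carvedilol-treated against normal animals and 69 for hypoxia against normal animals. All calls against normal ventricle given here are without that covariate. The median of all genes was -0.39 for hypoxia minus normal, and quantile normalisation moved it to -0.29 with 281 genes higher and 1174 lower. Untreated SuHx animals differed from hypoxia animals in 1131 genes (11.6%), 956 higher (9.78%) and 175 lower (1.79%), with a median of 0.26 that quantile normalisation moved to 0.15. These comparisons share animals. For the genes higher in carvedilol-treated animals, the normal mean lay nearer to the carvedilol-treated mean in 749 of 1014. For the genes lower in carvedilol-treated animals it lay nearer to the hypoxia mean in 528 of 635. Over all tested genes the normal mean lay nearer to the carvedilol-treated mean in 50.6%. It lay above both means in 5298 of all 9775 genes and below both in 1224, so that it was often nearer to whichever group was higher. It lay between the 2 means in 675 of the 1014 and in 417 of the 635. A likeness within 1 log2 unit, with the whole 95% interval inside it, was shown for 2307 genes (23.6%), a difference of more than 1 unit for 303 (3.10%), and neither for 7165. Without the 2 arrays that stood apart 1948 genes were called, 1029 higher and 919 lower, and a fit on these 2 groups alone called 583. With the 2 hypoxia animals numbered over 100 as the whole hypoxia group, 1357 genes were called.

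**Figure D1:**
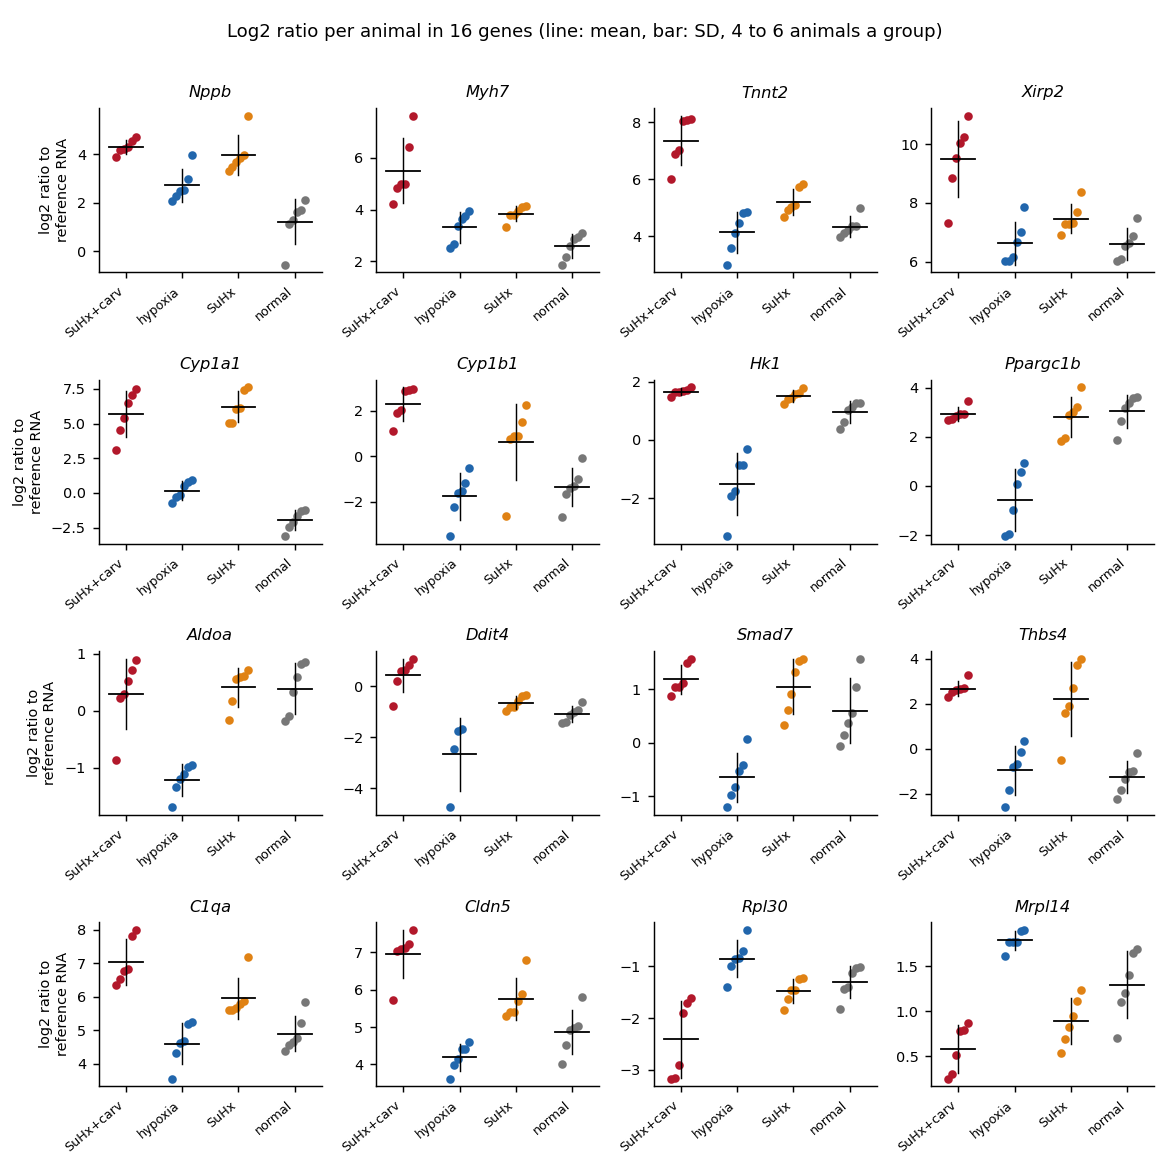
Log2 ratio to reference RNA (y axis) of each animal in 16 genes, by group (x axis: SuHx with carvedilol, hypoxia, SuHx, normal). Points are animals, lines are means and bars are SD. Carvedilol-treated and hypoxia animals overlap in 2 of the 16 panels, Nppb and Xirp2, and Rpl30 and Mrpl14 are the panels where the carvedilol-treated animals are lower.

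Natriuretic peptides and the genes of the stressed and fetal heart were higher in the treated ventricle. Nppb, the B-type natriuretic peptide that heart muscle releases under load, ranged from 3.88 to 4.69 with a median of 4.26 in carvedilol-treated animals, against 2.06 to 3.98 with a median of 2.50 in hypoxia animals. The difference was 1.59 ± 0.41 (adjusted p = 0.0100), 3.01-fold, and 1 hypoxia animal reached into the range of the treated ones. Against normal ventricle Nppb stood higher by 3.09 in carvedilol-treated animals (adjusted p = 0.000107) and 1.50 in hypoxia animals (adjusted p = 0.0194). Nppa, the atrial natriuretic peptide, ranged from 4.38 to 6.07 with a median of 5.27 in carvedilol-treated animals, against 2.79 to 5.02 with a median of 3.61 in hypoxia animals, a difference of 1.65 ± 0.41 (adjusted p = 0.00783) with overlapping groups. Nppa is also a marker of atrial muscle, and 5 of 9 tested atrial markers were higher. Nppa was close to normal in hypoxia animals, where the difference from normal was -0.21. Myh7, the slow beta myosin heavy chain of the fetal rat ventricle, ranged from 4.21 to 7.62 with a median of 4.99 in carvedilol-treated animals, against 2.52 to 3.96 with a median of 3.49 in hypoxia animals. Its groups did not overlap and differed by 2.20 ± 0.43 (adjusted p = 0.00109). Myh6, the fast alpha myosin heavy chain of the adult rat ventricle, differed by -0.25 with a 95% interval of -1.67 to 1.16 (adjusted p = 0.840), and its 2 probes went opposite ways, by -2.81 and 1.77. Acta1, the skeletal alpha actin that the loaded heart takes up, differed by 1.18 ± 0.30 (adjusted p = 0.00819). With animal weights the adjusted p was 0.104 for Nppa, 0.0635 for Nppb and 0.0645 for Acta1, and with 1 array per animal it was 0.0717 for Myh7.

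Genes that muscle cells use to sense and bear stretch were higher as well. Xirp2, an actin-binding protein of the intercalated disc, ranged from 7.31 to 10.96 with a median of 9.79 in carvedilol-treated animals, against 6.02 to 7.87 with a median of 6.42 in hypoxia animals, a difference of 2.86 ± 0.46 (adjusted p = 0.000215). Only the lowest treated animal lay within the hypoxia range. Ankrd1, a cofactor that muscle cells induce on stretch, differed by 1.25 ± 0.18 (adjusted p = 6.22e-05), Enah, an actin regulator, by 1.51 ± 0.23 (adjusted p = 0.000127) and Fhl1, a sensor of strain at the sarcomere, by 1.40 ± 0.26 (adjusted p = 0.000849), none of them with overlapping groups. The 2 probes of Ankrd1 were unequal, with differences of 2.17 and 0.20. In the list of stress and fetal genes, 13 of 19 tested members were higher (Nppa, Nppb, Acta1, Myh7, Ankrd1, Xirp2, Enah, Rcan1, Fhl1, Csrp3, Gdf15, Hspb6, Des), 1 was lower (the cytokine gene Ctf1) and the median difference was 1.22. Without the 2 arrays the counts were 13 higher and 1 lower. Against normal ventricle, 13 members were higher in carvedilol-treated animals (background 2.27%) and 2 in hypoxia animals (background 0.890%). With the 2 hypoxia animals numbered over 100 alone, 8 members were higher, Nppa differed by 1.02 (adjusted p = 0.239) and Acta1 by 0.55 (adjusted p = 0.359).

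Genes of the sarcomere, the contractile unit, were higher in the treated ventricle. Tnnt2, cardiac troponin T of the thin filament, ranged from 6.00 to 8.12 with a median of 7.55 in carvedilol-treated animals, against 3.00 to 4.85 with a median of 4.29 in hypoxia animals, and its groups lay more than 1 unit apart, with a difference of 3.22 ± 0.36 (adjusted p = 3.77e-06). Tnni3, cardiac troponin I, ranged from 6.49 to 9.68 with a median of 7.47 in carvedilol-treated animals, against 4.57 to 5.57 with a median of 5.21 in hypoxia animals, a difference of 2.67 ± 0.41 (adjusted p = 0.000145). Mybpc3, the myosin-binding protein C of the thick filament, differed by 1.45 ± 0.26 (adjusted p = 0.000609) and Tpm1, the alpha tropomyosin, by 1.49 ± 0.24 (adjusted p = 0.000244). Of 23 tested sarcomere and Z-disc genes 13 were higher (Myh7, Myl2, Myl3, Mybpc3, Actc1, Actn2, Tnnt2, Tnni3, Tpm1, Tcap, Ldb3, Myom2, Pdlim5), none was lower, and the median difference was 1.36. In carvedilol-treated against normal ventricle 9 were higher and none was lower (backgrounds 2.27% and 8.75%). None of the 23 was called by limma in hypoxia against normal ventricle (backgrounds 0.890% and 11.5%). Muscle genes outside the sarcomere were higher too. Ckm, the muscle creatine kinase, ranged from 6.34 to 8.39 with a median of 7.16 in carvedilol-treated animals, against 4.36 to 5.89 with a median of 4.72 in hypoxia animals, a difference of 2.34 ± 0.31 (adjusted p = 2.79e-05). Mb, the oxygen-binding myoglobin, differed by 2.45 ± 0.43 (adjusted p = 0.000507). Of the 16 cardiomyocyte markers 11 were higher and none lower, with a median of 1.84. In bulk tissue, more muscle cells and more of these RNAs per cell cannot be told apart. Without the 2 arrays 9 of the sarcomere genes and 9 of the cardiomyocyte markers were higher, and with quantile normalisation 8 and 9.

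The letters before the start site are shown for 3 of these genes because a short motif known to bind TEAD factors in muscle promoters, CATTCC, lies in each. The windows run from 250 bases before to 50 after the start (RefSeq, GRCr8), 5′ to 3′ on the gene's strand, with CATTCC or its reverse complement GGAATG in capitals. Acta1 is at chr19:68784145-68784444 on the minus strand, Nppb at chr5:163699758-163700057 on the plus strand and Tnnt2 (1 of 2 listed starts) at chr13:49818873-49819172 on the plus strand.
Acta1: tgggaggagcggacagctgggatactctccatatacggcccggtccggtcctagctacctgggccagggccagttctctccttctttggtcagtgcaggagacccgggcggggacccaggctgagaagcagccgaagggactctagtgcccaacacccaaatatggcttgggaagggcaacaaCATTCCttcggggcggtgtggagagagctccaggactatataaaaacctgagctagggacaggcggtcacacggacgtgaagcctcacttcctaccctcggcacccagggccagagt
Nppb: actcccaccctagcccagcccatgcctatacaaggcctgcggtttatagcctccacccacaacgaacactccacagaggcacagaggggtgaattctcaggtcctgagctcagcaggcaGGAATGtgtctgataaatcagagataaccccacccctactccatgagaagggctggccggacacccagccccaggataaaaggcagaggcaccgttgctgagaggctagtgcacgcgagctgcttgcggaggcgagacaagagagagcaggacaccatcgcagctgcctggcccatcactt
Tnnt2: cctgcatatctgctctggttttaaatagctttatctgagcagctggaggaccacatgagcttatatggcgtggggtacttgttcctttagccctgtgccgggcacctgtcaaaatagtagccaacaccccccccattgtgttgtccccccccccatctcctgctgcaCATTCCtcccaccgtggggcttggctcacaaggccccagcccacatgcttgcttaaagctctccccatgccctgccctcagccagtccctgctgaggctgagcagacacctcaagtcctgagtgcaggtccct
The motif begins at -67 in Acta1, -131 in Nppb and -83 in Tnnt2. It was found in 9 of 46 windows listed for the stress and sarcomere genes (19.6%) and in 14.2% of all 33469 windows. A match describes the letters and does not show binding.

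Both aryl hydrocarbon receptor targets with large changes encode cytochromes P450. Cyp1a1 had the largest fold of all called genes. It ranged from 3.13 to 7.49 with a median of 5.94 in carvedilol-treated animals, against -0.69 to 0.93 with a median of 0.18 in hypoxia animals, a difference of 5.50 ± 0.62 (adjusted p = 3.37e-06), 45.3-fold. Against normal ventricle, where the median was -1.88, Cyp1a1 stood higher by 7.65 in carvedilol-treated animals (adjusted p = 1.61e-07) and 2.15 in hypoxia animals (adjusted p = 0.0257). Cyp1b1 ranged from 1.13 to 2.95 with a median of 2.45 in carvedilol-treated animals, against -3.50 to -0.52 with a median of -1.57 in hypoxia animals, a difference of 4.05 ± 0.63 (adjusted p = 0.000135), and its hypoxia level was near the normal median of -1.34. Of 5 tested targets, 2 were higher and none lower. Cyp1a1 was also high in SuHx animals, which share SU5416 with the treated ones, with a median of 6.08, and the difference of carvedilol-treated from SuHx animals was -0.54 (adjusted p = 0.707). The Cyp1b1 window holds the core of the receptor's response element, GCGTG or CACGC, in 2 places, in capitals here (chr6:21094315-21094614, plus strand, RefSeq, GRCr8, same span).
Cyp1b1: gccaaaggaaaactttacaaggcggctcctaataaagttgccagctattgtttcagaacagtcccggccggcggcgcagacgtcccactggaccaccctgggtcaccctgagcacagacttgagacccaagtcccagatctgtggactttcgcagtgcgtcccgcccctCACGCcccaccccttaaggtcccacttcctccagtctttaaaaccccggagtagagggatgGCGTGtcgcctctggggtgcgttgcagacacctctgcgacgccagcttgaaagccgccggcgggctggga
That core is in 29.7% of all windows.

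Genes of adrenergic signalling, the pathway that carvedilol blocks at its receptors, differed in part. Adrb1, the beta1 receptor, did not pass the test between the groups: it ranged from -0.56 to 1.93 with a median of 0.60 in carvedilol-treated animals, against -0.14 to 1.88 with a median of 1.49 in hypoxia animals, and the 95% interval of the difference was -1.35 to 0.30. From normal, where the median was 2.83, it differed by -2.15 in carvedilol-treated animals (adjusted p = 0.00150) and -1.62 in hypoxia animals (adjusted p = 0.00981). Adra1b, an alpha1 receptor, was among 5 higher members of 28 tested (background 10.4%), with Adcy5, Prkar1a, Akap1 and Grk6. The 3 probes of Adra1b ran from -0.64 to 2.01 with 1 called, and none of the 3 probes of Prkar1a was called by itself. Adcy5, the main adenylyl cyclase of heart muscle, differed by 1.79 ± 0.44 (adjusted p = 0.00702) and Akap1, an anchor of protein kinase A at mitochondria, by 1.49 ± 0.37 (adjusted p = 0.00749). Adcy5 was not called with quantile normalisation (1.34, adjusted p = 0.0544), nor Akap1 with its highest-ratio probe (0.39, adjusted p = 0.298). Pde4a, which degrades cyclic AMP, and Rgs4, which curbs G protein signals, were lower, near the background of 6.50%. The median of the list was 0.27 and, without the 2 arrays, 0.02 with 6 higher and 2 lower.

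Calcium and channel genes were mixed. Atp2a2, the calcium pump of the sarcoplasmic reticulum, ranged from 1.06 to 2.01 with a median of 1.87 in carvedilol-treated animals, against 1.17 to 1.56 with a median of 1.32 in hypoxia animals and did not pass (adjusted p = 0.111, and 0.0184 without treated animal 1, the lowest). Ryr2, the calcium release channel, had values in 4 hypoxia animals and ranged from 1.21 to 5.72 with a median of 3.92 in carvedilol-treated animals, against -1.14 to 3.26 with a median of 1.07 in hypoxia animals (4 animals), a difference of 2.71 ± 0.80 (adjusted p = 0.0238) that lay at p = 0.0998 without hypoxia animal 3, 0.0651 without hypoxia animal 4 and 0.0524 without treated animal 6. Its normal median was 5.59. S100a1, a calcium sensor that binds that channel, was lower, at a median of 1.72 (1.48 to 1.88) in carvedilol-treated and 2.79 (2.23 to 3.14) in hypoxia animals, a difference of -1.05 ± 0.23 (adjusted p = 0.00311) without overlap. Hrc, a calcium-binding protein of the sarcoplasmic reticulum, was higher by 1.26 ± 0.28 (adjusted p = 0.00371) and Cacna2d1, a calcium channel subunit, by 0.57 ± 0.15 (adjusted p = 0.0119). Of 25 tested calcium genes 6 were higher and 2 lower (5 higher and 2 lower without the 2 arrays). Among 16 channel and connexin genes 4 were higher and none lower. They were Gja5, a connexin of the conduction system, at a median of 0.56 (0.35 to 1.23) in carvedilol-treated and -0.89 (-1.66 to -0.51) in hypoxia animals (difference 1.64 ± 0.26, adjusted p = 0.000155), Abcc9, the regulatory subunit of the potassium channel that ATP closes, at a median of 3.95 (3.45 to 4.29) in carvedilol-treated and 2.33 (0.53 to 2.77) in hypoxia animals (difference 2.02 ± 0.39, adjusted p = 0.00110), Fxyd1, a regulator of the sodium pump (difference 1.82 ± 0.41, adjusted p = 0.00353), and the potassium channel Kcnj3.

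**Figure D2:**
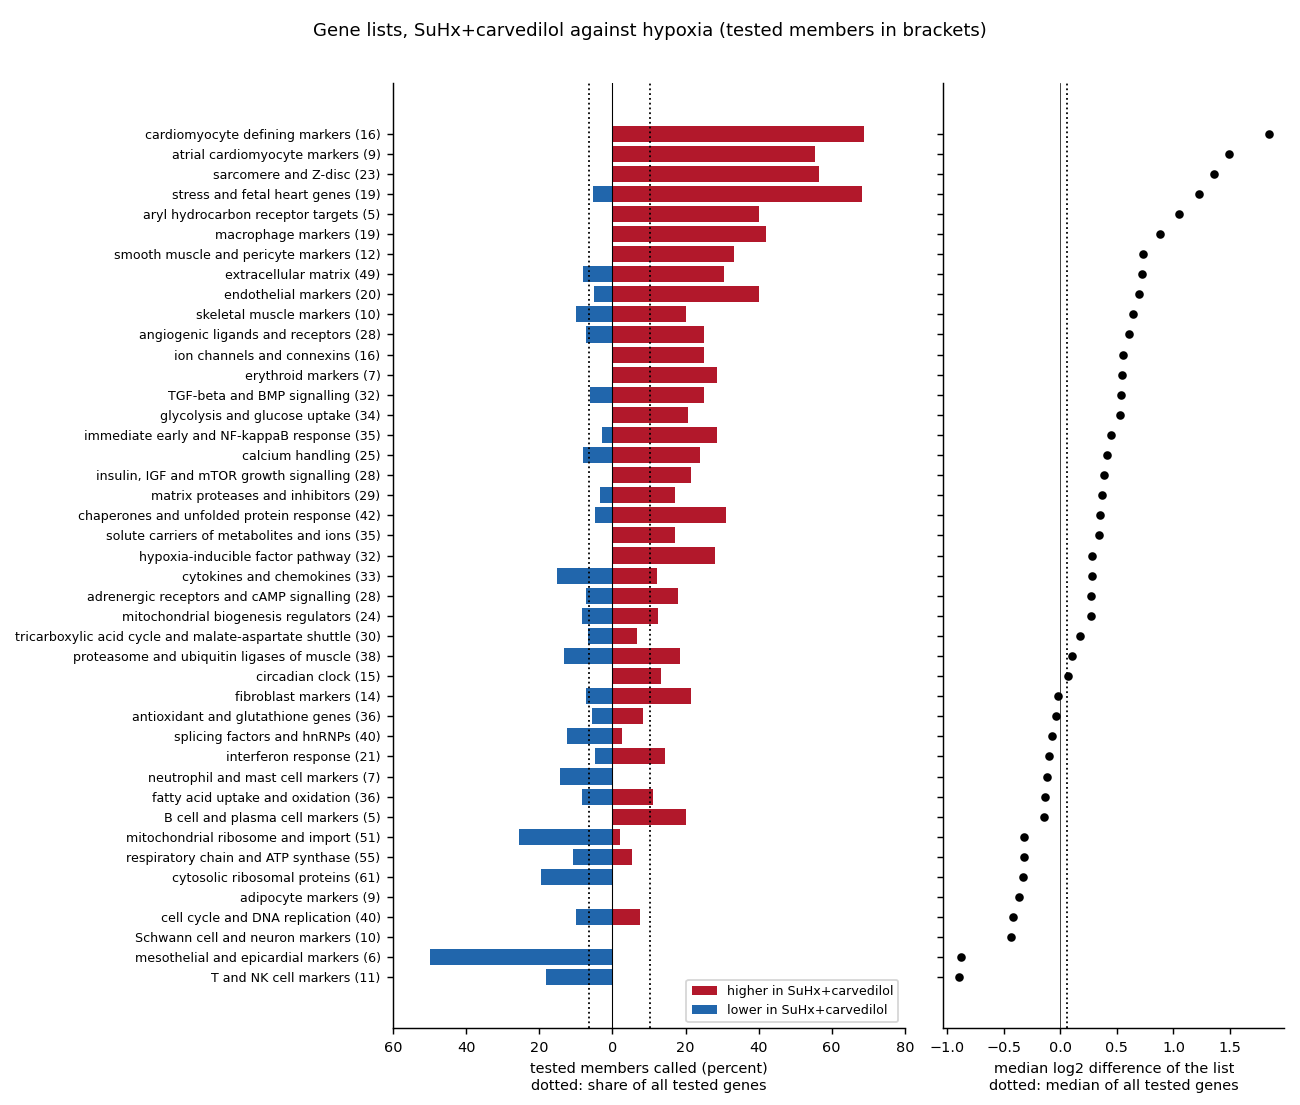
Left, percent of tested members of each of 43 gene lists called higher (right of 0) or lower (left of 0) in carvedilol-treated SuHx than in hypoxia animals, with the shares of all tested genes, 10.4% and 6.50%, as dotted lines. Right, median log2 difference of each list, with the median of all genes, 0.06, dotted. Heart muscle lists stand at the top and the ribosomal and lymphocyte lists near the bottom.

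Among genes of mitochondrial biogenesis and fatty acid use, few differed between the groups. Ppargc1b, the PGC-1 beta coactivator of mitochondrial genes, ranged from 2.69 to 3.45 with a median of 2.88 in carvedilol-treated animals, against -2.04 to 0.92 with a median of -0.45 in hypoxia animals, a difference of 3.50 ± 0.47 (adjusted p = 3.23e-05), 11.3-fold. From normal it differed by -0.12 in carvedilol-treated animals (adjusted p = 0.898) and -3.62 in hypoxia animals (adjusted p = 6.01e-05). Twnk, the mitochondrial DNA helicase, was higher by 0.68 ± 0.18 (adjusted p = 0.0100) and Sirt3, a mitochondrial deacetylase, differed by -0.83 ± 0.19 (adjusted p = 0.00538). In the list of biogenesis regulators 3 of 24 were higher and 2 lower against backgrounds of 10.4% and 6.50%. Against normal 5 of them were lower in carvedilol-treated animals (Esrra, Ppara, Tfb2m, Sirt3 and Mfn1, background 8.75%) and 9 in hypoxia animals, Ppargc1b among them (background 11.5%). Cpt1b, the carnitine transferase that admits fatty acids to mitochondria, was higher by 0.97 ± 0.22 (adjusted p = 0.00401), at a median of 3.28 (3.04 to 3.63) in carvedilol-treated and 2.33 (1.79 to 2.85) in hypoxia animals, against a normal median of 3.60. Without the 2 arrays the Cpt1b difference was 0.67 (adjusted p = 0.0534), and with its highest-ratio probe 0.41 (adjusted p = 0.321). Pnpla2, the lipase that opens fat stores, was higher by 2.13 ± 0.39 (adjusted p = 0.000742), while Acadm, the dehydrogenase of medium-chain fatty acids, differed by -1.03 ± 0.25 (adjusted p = 0.00635) without overlap. Of 36 fatty acid genes 4 were higher and 3 lower, near the backgrounds of 10.4% and 6.50%. Against normal 11 were lower in carvedilol-treated animals (background 8.75%) and 9 in hypoxia animals (background 11.5%).

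Few subunits of the respiratory chain differed, with a median of -0.32. Of 55 tested, 3 were higher (Ndufv1, Cox6a2, Atp5f1a), against a background of 10.4%. Another 6 were lower (Ndufa2, Ndufc2, Ndufs8, Ndufv3, Cox4i1, Atp5f1d), against a background of 6.50%. Of the 2 probes of Cox4i1, with differences of -2.39 and -0.06, only 1 was called. Ndufv1, of the NADH-oxidising end of complex I, differed by 1.20 ± 0.27 (adjusted p = 0.00379), Cox6a2, the heart and muscle form of a complex IV subunit, by 1.07 ± 0.24 (adjusted p = 0.00417), and Ndufv3, a complex I subunit next to Ndufv1, by -0.84 ± 0.21 (adjusted p = 0.00924). With quantile normalisation Cox6a2 differed by 0.29 (adjusted p = 0.274). Sdhc, which anchors complex II in the membrane, was lower at a median of 2.02 (1.84 to 2.52) in carvedilol-treated and 3.21 (2.80 to 3.91) in hypoxia animals, a difference of -1.26 ± 0.27 (adjusted p = 0.00258). In the citric acid cycle and its shuttles 2 of 30 genes were higher (Dlst and Got1) and 2 lower (Sdhc and Sdhd). These counts were near the backgrounds of 10.4% and 6.50%. Neither of the 2 probes of Sdhd was called by itself. The call was lost in 23 of 32 alternative settings for Sdhd and in 19 of 32 for Dlst. In the mitochondrial ribosome and import machinery 13 of 51 genes were lower, 1 was higher (Mrpl2) and 37 did not pass, with a median of -0.32. Mrpl14, a protein of the large mitochondrial ribosomal subunit, ranged from 0.25 to 0.87 with a median of 0.64 in carvedilol-treated animals, against 1.61 to 1.91 with a median of 1.77 in hypoxia animals. These groups did not overlap and differed by -1.21 ± 0.18 (adjusted p = 0.000123). Timm13, a chaperone of the space between the mitochondrial membranes, differed by -0.67 ± 0.15 (adjusted p = 0.00326). The counts without the 2 arrays were 0 higher and 16 lower for the mitochondrial ribosome and import list and 7 higher and 9 lower for the respiratory chain.

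A few glycolytic genes were higher in the treated ventricle. Hk1, the hexokinase that phosphorylates glucose, ranged from 1.49 to 1.81 with a median of 1.67 in carvedilol-treated animals, against -3.31 to -0.33 with a median of -1.32 in hypoxia animals, and the groups were separated by more than 1 unit, with a difference of 3.18 ± 0.33 (adjusted p = 1.49e-06), 9.04-fold. From normal, where the median was 1.08, Hk1 differed by 0.72 in carvedilol-treated animals (adjusted p = 0.170) and -2.46 in hypoxia animals (adjusted p = 8.71e-05). Aldoa, the aldolase of muscle, ranged from -0.86 to 0.89 with a median of 0.41 in carvedilol-treated animals, against -1.70 to -0.95 with a median of -1.16 in hypoxia animals, a difference of 1.51 ± 0.26 (adjusted p = 0.000463) with a normal median of 0.46. Ldha, the lactate dehydrogenase subunit of glycolytic tissue, differed by 1.09 ± 0.27 (adjusted p = 0.00735). In this list 7 of 34 glycolytic genes were higher (Hk1, Gpi, Aldoa, Pgam2, Ldha, Ldhb, Gyg1) and none lower, with a median of 0.53 and, without the 2 arrays, 7 higher and 1 lower. Against normal, 2 of the 34 were higher and 2 lower in carvedilol-treated animals (backgrounds 2.27% and 8.75%), and none was higher and 4 were lower in hypoxia animals (backgrounds 0.890% and 11.5%), the last near its background.

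Some genes of the hypoxia-inducible factor pathway were higher in the treated animals, which had breathed room air for 4 weeks, than in hypoxia animals. Of 32 tested, 9 were higher (Egln2, Egln3, P4ha2, Ddit4, Adm, Vegfa, Lox, Loxl2, Angptl4) none was lower and 23 did not pass, with a median of 0.28 (11 higher and 1 lower without the 2 arrays). Ddit4, an inhibitor of mTOR that low oxygen induces, had values in 4 hypoxia animals and ranged from -0.77 to 1.08 with a median of 0.62 in carvedilol-treated animals, against -4.75 to -1.67 with a median of -2.11 in hypoxia animals (4 animals), a difference of 3.10 ± 0.45 (adjusted p = 9.97e-05). Egln2 and Egln3, the oxygen sensors that mark the factor for destruction, differed by 1.37 ± 0.24 (adjusted p = 0.000486) and 1.17 ± 0.25 (adjusted p = 0.00234). Adm, the vasodilator adrenomedullin, differed by 1.01 ± 0.26 (adjusted p = 0.00975). Vegfa, the main endothelial growth factor, ranged from 1.61 to 3.09 with a median of 2.10 in carvedilol-treated animals, against -0.99 to 2.09 with a median of 0.73 in hypoxia animals with overlap and differed by 1.62 ± 0.42 (adjusted p = 0.0111), and by 0.68 (adjusted p = 0.408) against the 2 hypoxia animals numbered over 100. Vegfb, its relative in heart muscle, differed by 1.23 ± 0.23 (adjusted p = 0.000939) without overlap. Cxcr4, the receptor of Cxcl12, ranged from 1.77 to 2.52 with a median of 1.84 in carvedilol-treated animals, against -1.61 to 1.15 with a median of -0.16 in hypoxia animals, a difference of 2.14 ± 0.39 (adjusted p = 0.000623). Its ligand Cxcl12 and the apelin peptide gene Apln were the 2 lower members of 28 angiogenic genes, of which 7 were higher. Aplnr, the apelin receptor, had a median of 0.96 (-0.09 to 1.15) in carvedilol-treated and -0.05 (-3.08 to 0.23) in hypoxia animals, against 2.19 in normal animals. Its difference of 1.33 ± 0.44 (adjusted p = 0.0386) was lost without any of treated animals 1, 2, 4 and 5 or hypoxia animals 3 and 5 (adjusted p between 0.0604 and 0.0726), and without the 2 arrays (0.0622).

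For the extracellular matrix list the backgrounds were 10.4% higher and 6.50% lower. Of its 49 tested genes 15 were higher and 4 lower (median 0.73, and 14 higher and 4 lower without the 2 arrays). The fibrillar collagen Col1a1 was not among them: it had a median of -1.74 (-2.02 to -0.12) in carvedilol-treated and -1.37 (-1.61 to -0.87) in hypoxia animals, and the 95% interval of its difference was -0.83 to 0.56. Periostin, Postn, a matricellular protein of scars, did not pass (adjusted p = 0.0879, and 0.00678 without treated animal 1), with a median of -0.70 (-3.98 to 0.19) in carvedilol-treated and -2.71 (-3.62 to -2.46) in hypoxia animals (6 and 4 animals). Thbs4, a thrombospondin of the loaded heart, ranged from 2.32 to 3.27 with a median of 2.65 in carvedilol-treated animals, against -2.60 to 0.35 with a median of -0.74 in hypoxia animals, a difference of 3.64 ± 0.59 (adjusted p = 0.000215). Its normal median was -1.17, close to hypoxia. Ltbp2, a latent TGF-beta binding protein of elastic fibres, differed by 4.57 ± 0.69 (adjusted p = 0.000128) with 5 hypoxia animals, and Fbln1, the glycoprotein fibulin 1, by 1.82 ± 0.30 (adjusted p = 0.000298). Lama5, a laminin chain of vessel basement membrane, differed by 1.58 ± 0.24 (adjusted p = 8.56e-05), but its 3 probes ran from -0.39 to 2.61. The other higher members were Col4a1, Col5a1, Col8a1, Col18a1, Fbn1, Bgn, Sparcl1, Ccn2, Mfap4, Lox and Comp, and the lower ones Col5a3, Ogn, Thbs2 and Ltbp1.

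TGF-beta signalling genes included 8 higher and 2 lower of 32, against backgrounds of 10.4% and 6.50%, with the lower count near its background. All 3 TGF-beta ligand genes were higher, Tgfb3 by 1.27 ± 0.26 (adjusted p = 0.00190). The endothelial co-receptor Eng had a median of 3.49 (3.33 to 4.10) in carvedilol-treated and 1.14 (-1.66 to 2.16) in hypoxia animals (6 and 5 animals), a difference of 3.16 ± 0.48 (adjusted p = 0.000153), and its partner Acvrl1 was also higher. Smad7, the inhibitor of the pathway, ranged from 0.87 to 1.56 with a median of 1.09 in carvedilol-treated animals, against -1.21 to 0.06 with a median of -0.68 in hypoxia animals, a difference of 1.84 ± 0.28 (adjusted p = 0.000130), while Smad3, which carries the signal to the nucleus, differed by -1.28 ± 0.29 (adjusted p = 0.00370) and Bmp7 was lower too. Of 29 protease and inhibitor genes 5 were higher and 1 lower (Adam10), against the same backgrounds. Plat, the tissue plasminogen activator, had a median of 0.66 (0.09 to 2.25) in carvedilol-treated and -1.08 (-1.44 to -0.34) in hypoxia animals, a difference of 2.02 ± 0.35 (adjusted p = 0.000464) and a normal median of 0.98. Adam15, a membrane protease of endothelium, differed by 1.11 ± 0.22 (adjusted p = 0.00143).

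**Figure D3:**
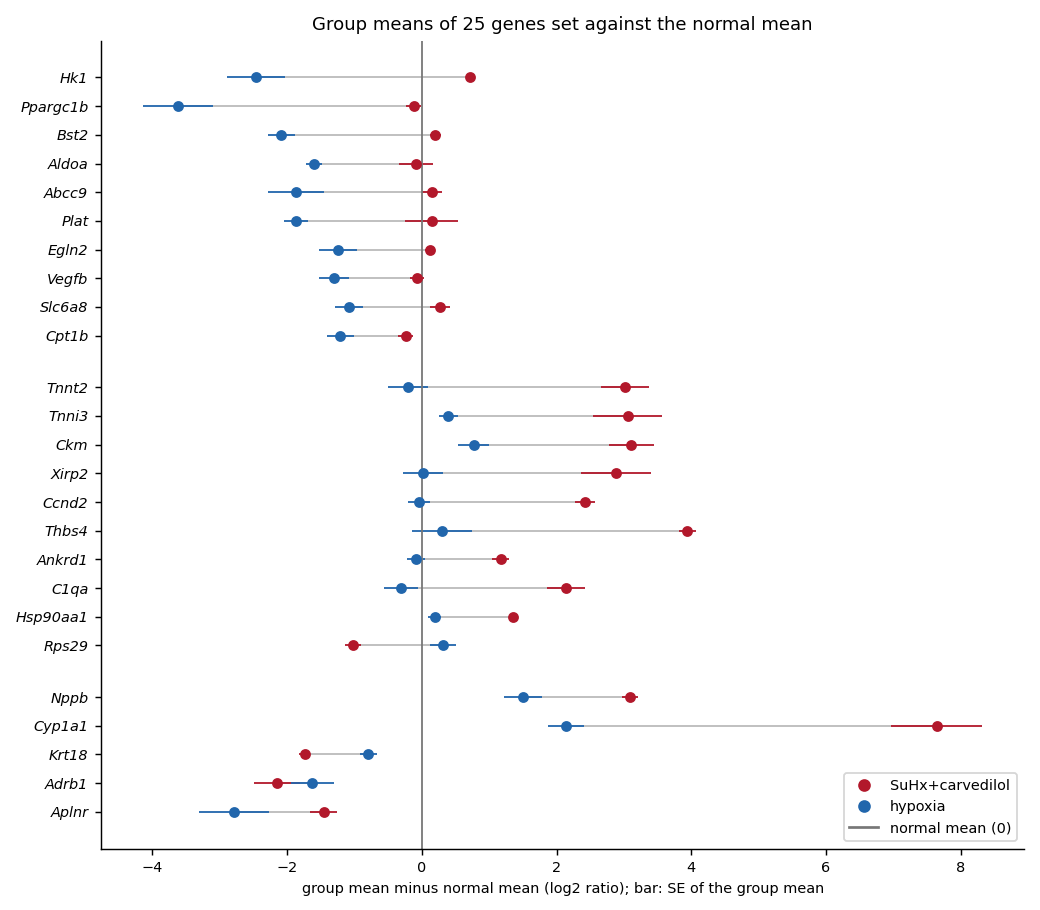
Group mean minus normal mean (x axis, log2 ratio) of 25 genes chosen after their values were seen, for carvedilol-treated SuHx and hypoxia animals. Points are group means, bars are SE of the group mean and the line at 0 is the normal mean. In the upper block, from Hk1 to Cpt1b, carvedilol-treated animals lie near 0 and hypoxia animals away from it, and in the middle block, from Tnnt2 to Rps29, the reverse holds.

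Part of the growth signalling, early response and chaperone genes were higher in the treated ventricle. Gsk3b, a kinase that restrains growth, ranged from -0.19 to 0.34 with a median of 0.12 in carvedilol-treated animals, against -1.69 to -0.77 with a median of -1.15 in hypoxia animals, a difference of 1.27 ± 0.21 (adjusted p = 0.000251), and Mtor, a kinase that drives it, differed by 1.27 ± 0.30 (adjusted p = 0.00530). Of 28 growth signalling genes 6 were higher and none lower. Klf2, which shear stress induces in endothelium, had a median of 1.88 (1.33 to 2.03) in carvedilol-treated and -0.01 (-0.92 to 0.76) in hypoxia animals, a difference of 1.79 ± 0.28 (adjusted p = 0.000157). Nfkb1, a subunit of NF-kappaB, differed by 0.79 ± 0.17 (adjusted p = 0.00232) and the early gene Fosl1 by -1.45 ± 0.25 (adjusted p = 0.000352), the only lower member of 35 against 10 higher ones. With quantile normalisation 4 of these 35 were higher, near the background of 10.4%. Among chaperones 13 of 42 were higher and 2 lower (Tcp1 and Pdia4). Hspa4, a helper of Hsp70, ranged from 1.29 to 1.90 with a median of 1.64 in carvedilol-treated animals, against -0.34 to 0.35 with a median of 0.06 in hypoxia animals, a difference of 1.58 ± 0.17 (adjusted p = 1.73e-06). Hsp90aa1, the inducible form of Hsp90, had a median of 0.28 (0.15 to 0.50) in carvedilol-treated and -0.88 (-1.12 to -0.46) in hypoxia animals, a difference of 1.17 ± 0.16 (adjusted p = 2.91e-05), with a normal median of -1.05. The small heat shock genes Hspb2, Hspb3, Hspb6, Hspb7, Hspb8 and Cryab were among the higher ones, and Hspb8 differed by 1.50 ± 0.25 (adjusted p = 0.000260). With values needed in only 2 animals per group, which adds probes, Hspb8 differed by 0.30 (adjusted p = 0.671).

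Proteasome genes went both ways. The lower members, Psma5, Psma6, Psmb2, Psmb3 and Psmb6, all belong to the core. Psmd3, Psmd4, Psmd8 and Psmd13, of the cap, were higher, as were the ubiquitin ligase genes Fbxo32, Trim54 and Stub1. Psmb6 differed by -0.84 ± 0.20 (adjusted p = 0.00519) and Psmd3 by 1.13 ± 0.29 (adjusted p = 0.00881). The list held 7 higher and 5 lower of 38, with a median of 0.10.

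Some cytosolic ribosomal protein genes were lower in the treated ventricle, and most did not pass. Of 61 tested 12 were lower (Rpl4, Rpl19, Rpl24, Rpl30, Rpl34, Rps13, Rps14, Rps15a, Rps21, Rps25, Rps27, Rps29) and none higher, with a median of -0.33. The backgrounds were 6.50% and 10.4%. Without the 2 arrays 18 were lower, and against the 2 hypoxia animals numbered over 100 it was 5. Probes of Rpl4 and of Rpl19 were of both signs, with 1 called for each gene. Rpl30, of the large subunit, ranged from -3.17 to -1.61 with a median of -2.41 in carvedilol-treated animals, against -1.40 to -0.29 with a median of -0.85 in hypoxia animals, and Rps29, of the small subunit, ranged from -0.95 to -0.09 with a median of -0.72 in carvedilol-treated animals, against -0.05 to 1.49 with a median of 0.66 in hypoxia animals. Neither pair of groups overlapped, with differences of -1.56 ± 0.27 (adjusted p = 0.000464) and -1.34 ± 0.24 (adjusted p = 0.000609). Their copies elsewhere in the genome can share probes, so single ribosomal protein genes are uncertain. Against normal 6 were lower in carvedilol-treated animals, near the background of 8.75%, and 1 in hypoxia animals (background 11.5%). Splicing factors held 5 lower (Srsf3, Srsf10, Srsf11, Rbm39 and Mbnl1) and 1 higher (Mbnl2) of 40. Rbm39 differed by -0.92 ± 0.22 (adjusted p = 0.00659). Few cell cycle genes were called: 3 of 40 were higher and 4 lower, against backgrounds of 10.4% and 6.50%. The D-type cyclins that start the cycle, Ccnd1, Ccnd2 and Ccnd3, were higher, and Ccnd2 ranged from 2.19 to 3.14 with a median of 2.61 in carvedilol-treated animals, against -0.40 to 0.77 with a median of 0.16 in hypoxia animals, a difference of 2.46 ± 0.24 (adjusted p = 5.65e-07). Ccna2, Ccnb1, Ccne1 and Pcna, which act from the onset of DNA synthesis to mitosis, were lower. Ccnb1 differed by -1.11 ± 0.23 (adjusted p = 0.00171). The remaining 33 of 40 did not pass.

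Macrophage markers were higher in the treated ventricle than in the hypoxic one, but not higher than in untreated SuHx animals. C1qa, a chain of complement C1q that tissue macrophages make, ranged from 6.34 to 7.99 with a median of 6.80 in carvedilol-treated animals, against 3.55 to 5.24 with a median of 4.65 in hypoxia animals, a difference of 2.45 ± 0.35 (adjusted p = 6.76e-05) with a normal median of 4.71. Lyz2, the macrophage lysozyme, differed by 1.47 ± 0.23 (adjusted p = 0.000164) and C1qc by 2.32 ± 0.37 (adjusted p = 0.000168). Of 19 tested markers 8 were higher (Adgre1, C1qa, C1qb, C1qc, Cd14, Lyz2, Ctss, Mpeg1) and none lower. The mean of the list per animal ran from 1.09 to 1.81 in carvedilol-treated animals and 0.16 to 0.55 in hypoxia animals. It ran from 0.87 to 1.87 in SuHx animals and 0.48 to 1.00 in normal animals. None of the 19 was called between carvedilol-treated and SuHx animals. T and NK cell markers were at or below the reference RNA in most animals, with 2 of 11 lower (Zap70 and Gzmc) and none higher. List means ran from -2.47 to -0.54 in carvedilol-treated animals and -1.09 to 0.28 in hypoxia animals. They ran from -1.95 to -0.68 in SuHx animals and -1.09 to -0.21 in normal animals. Bst2, an interferon-induced membrane protein, ranged from 1.05 to 1.48 with a median of 1.10 in carvedilol-treated animals, against -1.64 to -0.22 with a median of -1.13 in hypoxia animals, a difference of 2.29 ± 0.24 (adjusted p = 1.51e-06). Trim25, which ubiquitinates RNA sensors, differed by 1.70 ± 0.27 (adjusted p = 0.000175). With Stat2 these were the 3 higher of 21 interferon genes, against 1 lower (Ifi27), near the backgrounds of 10.4% and 6.50%. Among 33 cytokine genes 4 were higher (Il1b, Il6st, Ccl21, Cxcr4), near the background of 10.4%. Another 5 were lower (Il6r, Il15, Cxcl1, Cxcl9, Cxcl12), against a background of 6.50%. Il15, a growth factor of NK cells, had a median of -0.17 (-1.69 to 0.18) in carvedilol-treated and 1.19 (0.68 to 2.02) in hypoxia animals, a difference of -1.60 ± 0.31 (adjusted p = 0.00114). The lymphatic chemokine Ccl21 differed by 1.90 ± 0.42 (adjusted p = 0.00335). The part that the number of macrophages or lymphocytes had in these values was not tested.

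Markers of the other cells of the ventricle were read in the same way. Of 20 endothelial markers 8 were higher and 1 lower (Fabp4), and list means ran from 3.24 to 3.92 in carvedilol-treated animals, 2.32 to 3.16 in hypoxia animals and 2.93 to 3.56 in normal animals. Without the 2 arrays 6 of these markers were higher, and against the 2 hypoxia animals numbered over 100 only 3 were. Cldn5, the tight junction protein of endothelium, ranged from 5.72 to 7.59 with a median of 7.10 in carvedilol-treated animals, against 3.61 to 4.60 with a median of 4.27 in hypoxia animals, a difference of 2.77 ± 0.32 (adjusted p = 4.26e-06), and Aqp1, the water channel of capillaries, differed by 1.39 ± 0.29 (adjusted p = 0.00188). Mcam, of pericytes and smooth muscle, differed by 3.56 ± 0.65 (adjusted p = 0.000655) in a list with 4 of 12 higher. Fibroblast markers held 3 higher and 1 lower of 14 with a median of -0.02. Atrial markers held 5 higher of 9 (Myl7, Nppa, Dkk3, Gja5, Kcnj3), and list means ran from 2.05 to 4.17 in carvedilol-treated animals, 1.42 to 2.18 in hypoxia animals and 2.05 to 3.60 in normal animals. Without the 2 arrays 3 were higher. Of 6 mesothelial and epicardial markers, low in every group, 3 were lower (Msln, Krt8 and Krt18), but list means overlapped, at -3.76 to -3.20 in carvedilol-treated animals, against a lowest of -3.35 and a median of -2.41 in hypoxia animals. Against the 2 hypoxia animals numbered over 100 these calls were lost, with an adjusted p of 0.552 for Msln, 0.104 for Krt8 and 0.0791 for Krt18. Krt18, a keratin of surface epithelium, ranged from -4.73 to -4.25 with a median of -4.57 in carvedilol-treated animals, against -4.21 to -3.32 with a median of -3.52 in hypoxia animals, a difference of -0.94 ± 0.17 (adjusted p = 0.000742), with a normal median of -2.87. With values needed in only 2 animals per group Krt18 differed by -0.36 (adjusted p = 0.579). Red cell genes Hbb and Alas2 were the 2 higher of 7, Alas2 by 2.19 ± 0.48 (adjusted p = 0.00335). Hbb lost its call with quantile normalisation (1.03, adjusted p = 0.185) and without the 2 arrays (0.82, adjusted p = 0.0860), and against the 2 hypoxia animals numbered over 100 the adjusted p was 0.362 for Hbb and 0.126 for Alas2. What part the makeup of the tissue piece, with atrial tissue, surface or blood, had in the results was not tested.

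**Figure D4:**
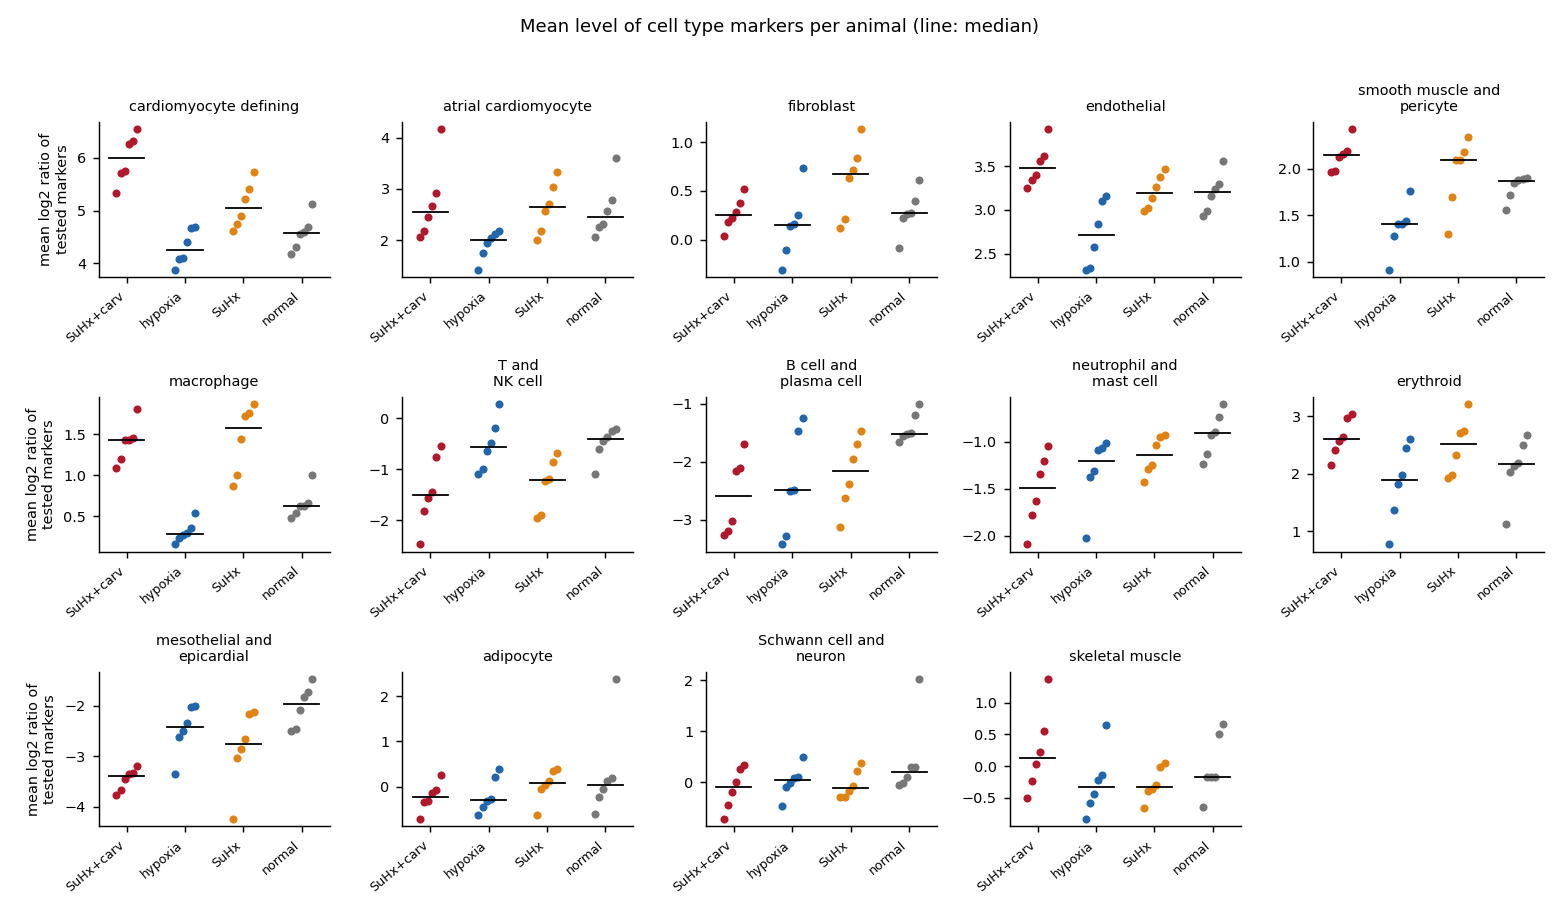
Mean log2 ratio of the tested markers of 14 cell types (y axis) in each animal, by group (x axis: SuHx with carvedilol, hypoxia, SuHx, normal). Points are animals and lines are medians. All carvedilol-treated animals lie above all hypoxia animals for cardiomyocyte, macrophage, endothelial and smooth muscle markers, and the groups overlap for the other 10.

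The 10 largest rises without overlap were those of Cyp1a1, Or5b123b, Zfp362, Fstl3, Ltbp2, Fibin, Cyp1b1, Sfrp1, Trim72 and Scn3b. Or5b123b, named as an olfactory receptor, had a median of 4.15 (3.93 to 4.19) in carvedilol-treated and -0.11 (-4.06 to 1.27) in hypoxia animals (difference 4.84 ± 0.64, adjusted p = 2.77e-05), and Zfp362, a zinc finger gene, a median of 2.52 (1.91 to 2.98) in carvedilol-treated and -2.30 (-3.70 to -0.62) in hypoxia animals (6 and 5 animals) (difference 4.82 ± 0.78, adjusted p = 0.000351). Fstl3, an inhibitor of activin, had a median of 0.39 (-0.33 to 0.72) in carvedilol-treated and -3.25 (-12.21 to -1.37) in hypoxia animals (difference 4.82 ± 1.09, adjusted p = 0.00401), where hypoxia animal 5 lay far below the rest. Fibin ranged from 2.72 to 4.52 with a median of 4.09 in carvedilol-treated animals, against -2.38 to 1.44 with a median of -0.32 in hypoxia animals, a difference of 4.14 ± 0.51 (adjusted p = 1.02e-05). Sfrp1, a soluble Wnt inhibitor, differed by 3.97 ± 0.58 (adjusted p = 7.76e-05) and Trim72, the membrane repair protein of striated muscle, by 3.96 ± 0.48 (adjusted p = 1.13e-05). Scn3b, a beta subunit of the cardiac sodium channel, ranged from 6.05 to 7.78 with a median of 6.81 in carvedilol-treated animals, against 2.06 to 3.65 with a median of 3.22 in hypoxia animals, a difference of 3.66 ± 0.47 (adjusted p = 1.69e-05) with a normal median of 3.28.

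The 10 largest falls without overlap were those of Atp6ap1l, Myoc, Pam16, Sit1, Marcks, Zfp955a, Banf1, Adh1c, Cda and Ccdc167. Atp6ap1l differed by -3.68 ± 0.79 (adjusted p = 0.00296) and Myoc, the secreted protein myocilin, by -3.26 ± 0.77 (adjusted p = 0.00749). Pam16, part of the motor that pulls proteins into mitochondria, ranged from -0.77 to 1.32 with a median of 0.78 in carvedilol-treated animals, against 1.81 to 4.94 with a median of 3.47 in hypoxia animals, a difference of -2.85 ± 0.58 (adjusted p = 0.00184). Sit1, a lymphocyte adaptor, differed by -2.55 ± 0.54 (adjusted p = 0.00248) and Marcks, a substrate of protein kinase C, by -2.48 ± 0.48 (adjusted p = 0.00115). Banf1, a DNA-binding protein of the nuclear envelope, had a median of -0.94 (-3.42 to -0.31) in carvedilol-treated and 0.69 (0.37 to 0.94) in hypoxia animals (difference -2.30 ± 0.42, adjusted p = 0.000686). The zinc finger gene Zfp955a, the alcohol dehydrogenase Adh1c and the cytidine deaminase Cda differed by -2.32 ± 0.48 (adjusted p = 0.00185), -2.16 ± 0.49 (adjusted p = 0.00441) and -2.12 ± 0.55 (adjusted p = 0.0111). Ccdc167 had a median of -0.92 (-1.41 to -0.65) in carvedilol-treated and 0.97 (0.48 to 1.55) in hypoxia animals (difference -1.92 ± 0.31, adjusted p = 0.000175). In normal animals the medians of Banf1 and Ccdc167 were 0.44 and 0.56, on the side of hypoxia.

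The likeness of single animals was measured across the 6279 genes with a value in every animal. Carvedilol-treated animals correlated with the hypoxia mean at r = 0.769 ± 0.0421 (SD, 0.715 to 0.815), SuHx animals at 0.843 ± 0.0276 (0.809 to 0.870), and these groups of 6 differed at p = 0.00649 (exact permutation test, two-sided, adjusted p = 0.00866 over 4 tests). The root mean square difference from the hypoxia mean was 1.10 ± 0.121 log2 units in carvedilol-treated and 0.908 ± 0.0596 in SuHx animals (exact permutation test, p = 0.00433, adjusted p = 0.00866). The treated animals also lay farther from the normal mean, with r = 0.806 ± 0.0547, against 0.894 ± 0.0334 in SuHx animals (exact permutation test, p = 0.00866, adjusted p = 0.00866). The root mean square difference from normal was 1.05 ± 0.183 in carvedilol-treated and 0.705 ± 0.0852 in SuHx animals (exact permutation test, p = 0.00649, adjusted p = 0.00866). The smallest p this design allows is 0.00216. More arrays were averaged for SuHx animals (12 arrays) than for treated ones (8 arrays). Treated animals also agreed less with their own group, with a mean r of 0.732 to 0.823 to the other treated animals, against 0.872 to 0.903 among SuHx animals, and the part of this spread in the distances was not tested. The root mean square test against hypoxia gave an adjusted p of 0.106 with 1 array per animal and 0.0649 with arrays scaled to equal spread.

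**Figure D5:**
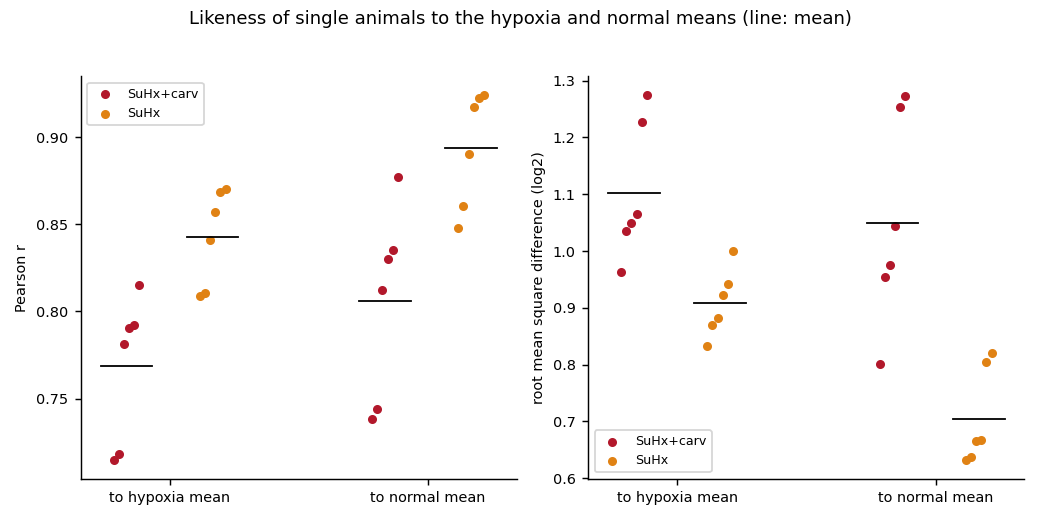
Pearson r (left) and root mean square log2 difference (right) of each carvedilol-treated SuHx and SuHx animal to the mean of the hypoxia animals and of the normal animals, across 6279 genes. Points are animals and lines are group means. Carvedilol-treated animals have lower r and larger differences to both means.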

How the data were processed

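RNA of 24 right ventricles was measured on 40 two-colour Agilent Whole Rat Genome arrays, 8 for carvedilol-treated SuHx, 12 for hypoxia, 12 for SuHx and 8 for normal animals. Per the series' design text, the authors scanned with GenePix Pro and normalised by lowess within each array in marray. The deposited values are log2 ratios of ventricle (Cy5) over reference RNA (Cy3), with no dye swap. One deposited table is titled as log10, but it holds the same values, and the log2 base is read from their range of -13.64 to 14.01. Of 43379 spots 25353 had 1 gene symbol, 48 several and 17978 none, and only the first were used. Empty cells made up 34.9% and stayed empty. Intensities are not used here, so that only the number of arrays and of spots with a value describes precision.

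Arrays of an animal were averaged first, and the animal is the replicate. Probes with a value in at least 4 of 6 animals of every group were kept (21567), and probes of a gene were averaged after removing each probe's offset, giving 9775 genes. Differences come from limma 3.58.1 in R 4.3.3 on 24 animals with 1 mean per group, with Benjamini-Hochberg adjustment and a threshold of 0.05. A gene with values in fewer than 6 animals was fitted on those it had. The script was tested on simulated data. Likeness was tested by two-sided exact permutation. The labels name no slide or scan, so no array batch was tested. The limma p-values measure the spread between animals within groups, pooled over all 24 animals, and not that of the 2 compared groups alone. SuHx and normal animals agreed more with their own group than treated and hypoxia animals did, and a fit on the 2 groups alone called 583 genes.

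The 2 groups, the 43 gene lists (1285 genes) and the tests were chosen with earlier results of these data known. Named genes are 14 genes picked by name (Nppa, Nppb, Myh6, Myh7, Acta1, Atp2a2, Ryr2, Adrb1, Ppargc1b, Hk1, Aplnr, Col1a1, Postn and Vegfa), the 10 largest rises and falls among called genes without overlap and with at least 5 animals per group, leaving out placeholder symbols, and in each list up to 4 called members with the lowest adjusted p, with other called members by name. Alternatives covered scaling, centring, filters on missing values, probes, technical arrays, weights, the replicate number, animal numbers, array quality and each animal left out. Promoter windows are RefSeq's (GRCr8).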

Additional observations from a re-analysis of the deposited data

Results flagged for a closer look

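In 20 of 236 sets of values, 1 animal lay farther from the nearest other animal than Dixon's 95% critical value for its group allows. That is 8.47%, where chance flags about 1 in 20, and all values are log2 ratios. Among carvedilol-treated animals, animal 1 was lowest for Atp2a2 (1.06), Hspb8 (1.56), Ndufv1 (1.49) and Psmb6 (-0.29) and highest for Cxcr4 (2.52), Mcam (5.57) and Ppargc1b (3.45). Animal 6 was lowest for Cldn5 (5.72) and Pam16 (-0.77) and highest for Rps29 (-0.0865). Animal 5 was lowest for Il15 (-1.69) and Twnk (0.0744), animal 3 for Fbln1 (0.84) and animal 2 for Marcks (-4.50). Among hypoxia animals, animal 5 was lowest for Fstl3 (-12.21), Krt18 (-4.21) and Lama5 (-1.33), animal 3 for Aplnr (-3.08) and Tgfb3 (-1.41), and animal 6 was highest for Hrc (5.58).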

How the results depend on the processing

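The count of genes that differed between carvedilol-treated and hypoxia animals stayed within 1.5 times of 1649 under every alternative run except a fit on these 2 groups alone, which gave 583 (404 higher and 179 lower), and was 1447 to 1671 with each animal left out. That fit also lowered SuHx against hypoxia to 599, hypoxia against normal to 672 and carvedilol-treated against SuHx to 11. The number of tested genes also changed from 9775, so that counts are not shares. It was 12815 with values in at least 2 animals per group, 3232 with probes on every array and 8158 with the first technical array. With probes on every array carvedilol-treated against hypoxia gave 1157 of 3232 genes. Hypoxia against normal (1212) gave 1848 with arrays scaled to equal spread and 69 with the number of values per animal as a covariate. It gave 801 of 12815 genes with values in at least 2 animals per group. With probes on every array it gave 797 of 3232, a lower count but a larger share. Carvedilol-treated against normal (1077) gave 444 with the first technical array, 2258 with animal weights and 237 with the covariate. Carvedilol-treated against SuHx (91) gave 144 with equal spread, 42 with values in at least 2 animals, 1 with the first technical array, 336 with animals as a random block, 388 with weights, 57 with the replicate number as a block, 191 without the 4 arrays with the fewest values, 202 without the 2 hypoxia arrays that stood apart, and 20 to 104 with an animal left out. Genes with the interval inside 1 unit (2307) numbered 1416 with the first technical array and 1404 with hypoxia animals numbered over 100 only. The excess of the root mean square difference to hypoxia in carvedilol-treated over SuHx animals was 0.106 with equal spread and 0.0841 with the first technical array, past the threshold in neither. The cause of these changes was not tested. Of 165 named genes 2 changed sign, Myh6 to 1.77 with probes on every array and Lama5 to -0.39 with its highest-ratio probe. A fit on the 2 groups alone lost 62 named calls, hypoxia animals numbered over 100 only 56, and robust moderation and the other deposited table none. Calls of Ccna2, Cspg4, Des, Dlst, Ebf1, Fap, Ifi27, Kcnj3, Mbnl2, Mcpt1, Msln, Myh1, Nr1d1, Polg, Sdhd, Slc41a3, Txn2 and Zap70 were lost without at least 1 single animal, with adjusted p between 0.0502 (Des, without hypoxia animal 4) and 0.135 (Ebf1, without hypoxia animal 4). The replicate numbers did not pair the animals, with correlations of deviations from -0.002 to 0.071, and as a block they lost 4 named calls and gave 1543 genes. Missing values limit the genes tested to 9775 of 14871.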

Other observations

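Several lists outside the comparisons above also held called genes, where the backgrounds were 10.4% higher and 6.50% lower. Of 15 clock genes 2 were higher in carvedilol-treated than in hypoxia animals, Per1, a repressor of the clock, by 1.41 ± 0.40 (adjusted p = 0.0179), and Nr1d1, and none was lower. The count of higher clock genes was near the background. Among 36 antioxidant genes 3 were higher and 2 lower, near both backgrounds. Keap1, which holds back the antioxidant regulator Nrf2, differed by 1.33 ± 0.29 (adjusted p = 0.00336) and Gpx7, a peroxidase of the endoplasmic reticulum, by -0.98 ± 0.26 (adjusted p = 0.0109). Solute carriers held 6 higher and none lower of 35. Slc6a8, the creatine transporter, had a median of 1.61 (0.91 to 2.00) in carvedilol-treated and 0.23 (-0.35 to 0.80) in hypoxia animals, a difference of 1.35 ± 0.23 (adjusted p = 0.000332), with a normal median of 1.22. Slc3a2, the shared subunit of amino acid transporters, differed by 0.94 ± 0.22 (adjusted p = 0.00471).

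Of the remaining cell type lists, skeletal muscle held 2 higher (Myh3 and Ckm) and 1 lower (Myh1) of 10, and Myh3, the embryonic myosin heavy chain, differed by 1.41 ± 0.22 (adjusted p = 0.000159). B cell and plasma cell markers held 1 higher (Ebf1) of 5, and neutrophil and mast cell markers 1 lower (Mcpt1) of 7. No member of 9 adipocyte and 10 Schwann cell and neuron markers was called by limma. In the same fit 91 genes differed between carvedilol-treated and untreated SuHx animals (0.931%), 30 higher (0.307%) and 61 lower (0.624%). These groups also differed in time since hypoxia and in label numbers, and the part of either was not tested.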
